A study of Mus musculus with 9 samples.

Results

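The genes described here make the secreted and membrane-bound enzymes that cut the extracellular matrix of the brain, and the proteins that hold those enzymes in check. They were chosen by symbol: the numbered Adamts, Adamtsl, Mmp and Timp genes, Tll1 and Tll2, and genes of the plasminogen activator system (Plau, Plaur, Plat, Serpine2 and Serpini1 among them). A gene was kept where the mean count of the authors' deposited tables was above 0 in both. Of 24015 genes listed per table, 59 symbols matched and 50 were kept: 19 ADAMTS, 5 ADAMTS-like, 14 MMP, 4 TIMP, 6 plasminogen activator system and 2 tolloid-like genes. The other 9 matching symbols (Mmp10, Mmp12, Mmp1a, Mmp1b, Mmp20, Mmp27, Mmp3, Mmp7 and Mmp8) were listed at 0 in both tables. Just inside that limit lay Mmp13: the authors' deposited tables list its mean count as 0.283 (E1) and 0.691 (E4).

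RNA came from the microdissected dentate gyrus, the hippocampal region built mainly of granule neurons, of C57BL/6 mice aged 8 weeks. The groups E0, E1 and E4 held 3 individual mice each, and the series asks how neuronal activation alters RNA and chromatin in the adult brain. What the number after E counts, the stimulus and the sex are missing from the labels. As background, E0 is known as the unstimulated state, and E1 and E4 as 1 h and 4 h after an electroconvulsive seizure, in which granule neurons fire in synchrony. The comparisons of E1 and of E4 with E0 share the E0 libraries, so a chance high or low E0 value moves both.

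Matrix metalloproteinases (MMPs), ADAMTS proteases and the tolloid group are zinc-dependent enzymes that cleave collagens, proteoglycans and growth factor antagonists outside the cell. Tissue inhibitors of metalloproteinases (TIMPs) block the active site of many of them. Plasminogen activators start a separate cascade by turning plasminogen into the broad protease plasmin, and serpins trap the activators. In the hippocampus these systems are known for trimming the perineuronal matrix, processing the precursor of BDNF and reshaping synapses.

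The bases upstream of the transcription start are shown for Tll1 and Timp1, which had the largest rises in E4 against E0, and Adamts1, which had the deepest fall. Tll1 lies at chr8:64206009-64206258 on the minus strand, Timp1 at chrX:20869916-20870165 on the plus strand and Adamts1 at chr16:85803114-85803363 on the minus strand (RefSeq, GRCm38.p6). Each is the 250 bases before the start, written 5′ to 3′, with matches to TGACG, the core of the cAMP response element, in capitals.
Tll1: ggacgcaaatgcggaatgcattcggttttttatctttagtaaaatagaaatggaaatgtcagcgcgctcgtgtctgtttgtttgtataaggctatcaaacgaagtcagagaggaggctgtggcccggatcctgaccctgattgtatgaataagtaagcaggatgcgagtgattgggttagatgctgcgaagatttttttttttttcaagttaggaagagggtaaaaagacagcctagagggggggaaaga
Timp1: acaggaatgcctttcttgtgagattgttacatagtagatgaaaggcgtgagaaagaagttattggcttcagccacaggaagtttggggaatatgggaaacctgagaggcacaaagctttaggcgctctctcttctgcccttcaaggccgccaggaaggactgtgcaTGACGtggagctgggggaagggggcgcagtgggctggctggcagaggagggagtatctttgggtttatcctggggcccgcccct
Adamts1: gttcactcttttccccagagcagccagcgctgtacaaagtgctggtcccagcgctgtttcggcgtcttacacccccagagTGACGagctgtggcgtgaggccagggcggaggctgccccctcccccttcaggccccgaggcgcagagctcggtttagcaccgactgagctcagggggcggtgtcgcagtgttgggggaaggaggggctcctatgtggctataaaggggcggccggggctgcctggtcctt

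The match in Timp1 begins at position -84 relative to the start and that in Adamts1 at position -170. RefSeq gave a promoter for 32 of the 50 genes (33 promoters of 300 bases, the 250 before the start and 50 after). TGACG, searched on both strands, was present in 6 of them (18.2%: Adamts1, Adamts12, Adamts3, Adamts9, Adamtsl3 and Timp1), against 20.8% of all 32851 promoters. The AP-1 site TGANTCA was present in 2 (6.06%: Mmp13 and Plaur), against 7.81% of all promoters. The CArG box, the serum response element, was found in 0 of them, against 1.63%. In the shorter window, from 150 bases before the start to 50 after, TGACG matched in 2 promoters (6.06%: Adamtsl3 and Timp1), against 16.6% of all promoters.

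Of the 50 genes, 11 rose and 7 fell in E1 against E0 and 4 rose and 8 fell in E4 against E0, where a call is an adjusted p below 0.05 in the authors' deposited table. For E1, 46 had an adjusted p and 39.1% were called, beside 35.5% of all 15660 genes tested (20.6% raised and 15.0% lowered). For E4, 42 had one and 28.6% were called, beside 39.0% of all 14455 genes tested (20.7% raised and 18.3% lowered). The share was near that of all genes in E1 and lower in E4, where 4 of 42 were raised, beside 20.7% of all genes. No test of these gaps was run, so the counts are not read as setting the genes apart. The median log2 fold change of those tested was 0.30 for E1, against 0.02 over all genes, and -0.16 for E4, against -0.01, in the authors' deposited tables. Between them the comparisons called 23 genes: 7 in both, 11 in E1 alone and 5 in E4 alone. The same split over all genes is not given here, so these counts are not read as particular to the 50 genes.

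**Figure D1:**
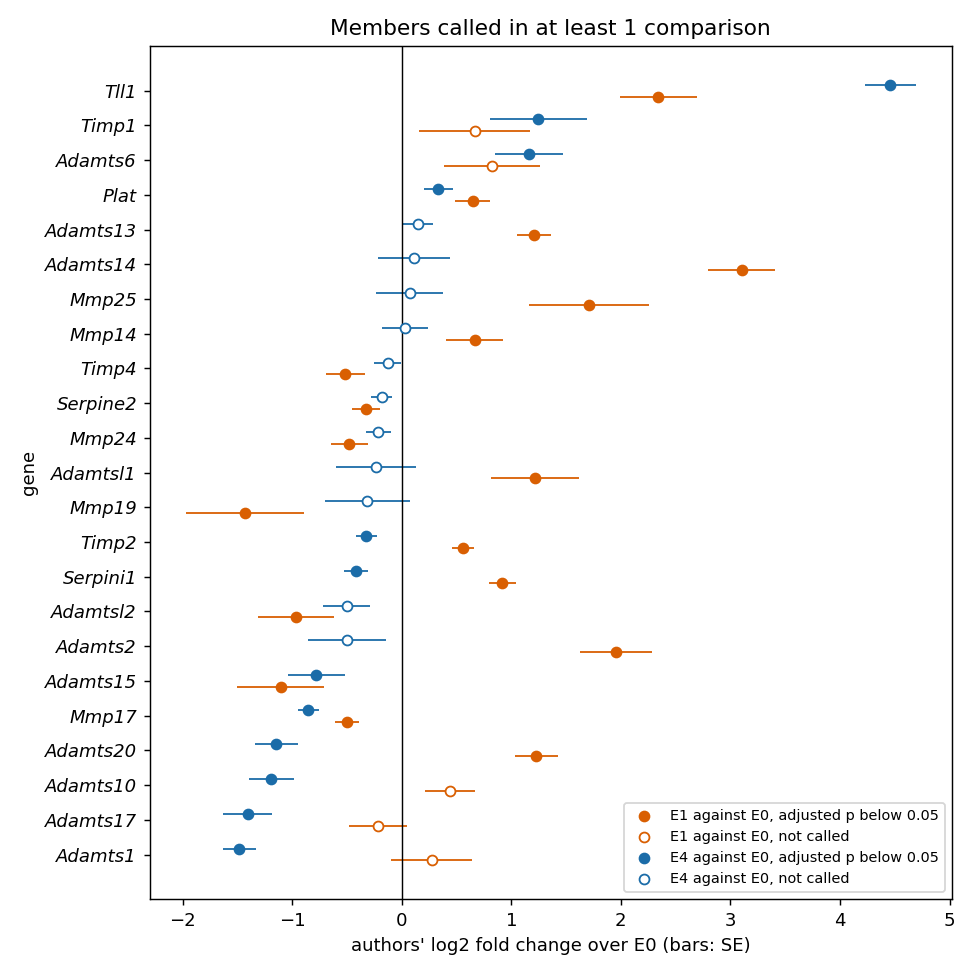
Log2 fold change over E0 (horizontal axis, authors' deposited values, bars are the SE) of the 23 genes called in at least 1 comparison (vertical axis), E1 in orange and E4 in blue, filled where called. Tll1 stands furthest to the right at 4.46 in E4, and Serpini1, Timp2 and Adamts20 have filled points on both sides of 0.

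Reads in single libraries were worked out for 38 of the 50 genes from the deposited mean counts, which are averages of whole reads divided by library size factors. The values below are these reads after division, as normalised counts on 1 scale for all 9 libraries, listed within a group from the deepest library to the shallowest. They carry no replicate number, and means are given ± SD over n = 3 libraries. For Tll1, Adamts17, Adamts20 and Mmp15 only reads within 0.4 log2 of the deposited fold changes were sought. The group ratios of these genes are therefore not independent of the deposited values. The E0 libraries held about 6140500 to 10965000 reads in genes, those of E4 about 10024000 to 13554000, and those of E1 only about 1941100 to 4756600, so low E1 values rest on few reads. For the other 12 genes, which are more abundant, only group means derived from the deposited mean count and fold change are given. Fold changes in the deposited tables are shrunken toward 0 for genes with few reads.

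Some markers of cell types were called too, which the counts above do not take into account. Of all genes tested 35.5% were called in E1 and 39.0% in E4. Several marker sets lay under these shares. The granule neuron set lay above both, and the astrocyte, microglia, endothelial, oligodendrocyte and GABAergic sets lay above that of E1. In the authors' deposited table for E1, 7 of 10 astrocyte markers and 4 of 10 microglia markers fell and 0 rose, while 4 of 11 endothelial markers rose and 1 fell. Of the 10 GABAergic interneuron markers 6 rose, and of the 10 dentate granule neuron markers 1 rose and 7 fell. Summed group levels went from 67731 in E0 to 60424 in E1 for astrocytes, 4681 to 3327 for microglia, 1116 to 1736 for endothelium, 5881 to 9559 for GABAergic neurons and 23033 to 14880 for granule neurons (derived from the authors' deposited table). Pericyte and smooth muscle markers rose in 2 of 8 cases in E1 and fell in 0. In the authors' deposited table for E4, 1 of 10 astrocyte, 2 of 10 microglia and 2 of 9 fibroblast markers fell and 0 rose. There 1 of 11 endothelial, 1 of 8 pericyte and 2 of 10 GABAergic markers rose, and of the granule neuron markers 4 rose and 6 fell. Of 8 oligodendrocyte markers 1 rose and 2 fell in E1 and 0 were called in E4, of 6 oligodendrocyte precursor markers 0 were called in E1 and 1 fell in E4, and of 4 choroid plexus markers tested 1 fell in E1. All listed markers, those of granule neurons included, had a mean count above 0 in both of the authors' deposited tables. In bulk tissue fewer cells of a type and less RNA per cell cannot be told apart, and the part of these markers in the changes below was not tested.

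Tll1, a tolloid-like protease that cleaves chordin, a BMP antagonist, and the C-terminal propeptides of procollagens, had the largest change of all 50 genes. Its normalised counts were 12.4, 26.6 and 22.1 in E0 (20.4 ± 7.29), 89.3, 152 and 144 in E1 (129 ± 34.3) and 436, 575 and 688 in E4 (566 ± 126). Every E1 library lay above every E0 library, and every E4 library above every E1 library. In whole reads E0 held 14, 25 and 14, E1 44, 53 and 29, and E4 610, 607 and 712. The rise was 5.07-fold in the authors' deposited table for E1 (log2 2.34 ± 0.35 SE, DESeq2 adjusted p = 4.76e-10). It reached 22.0-fold in the authors' deposited table for E4 (4.46 ± 0.23, DESeq2 adjusted p = 1.44e-81). Leaving out any 1 library kept the log2 ratio of the solved means between 4.54 and 5.04 for E4. The reads of Tll1 were sought only within 0.4 log2 of the deposited fold changes, so this range is not independent of them. Tll2, its close relative, had at most 4 reads in any library and no adjusted p in either of the authors' deposited tables.

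**Figure D2:**
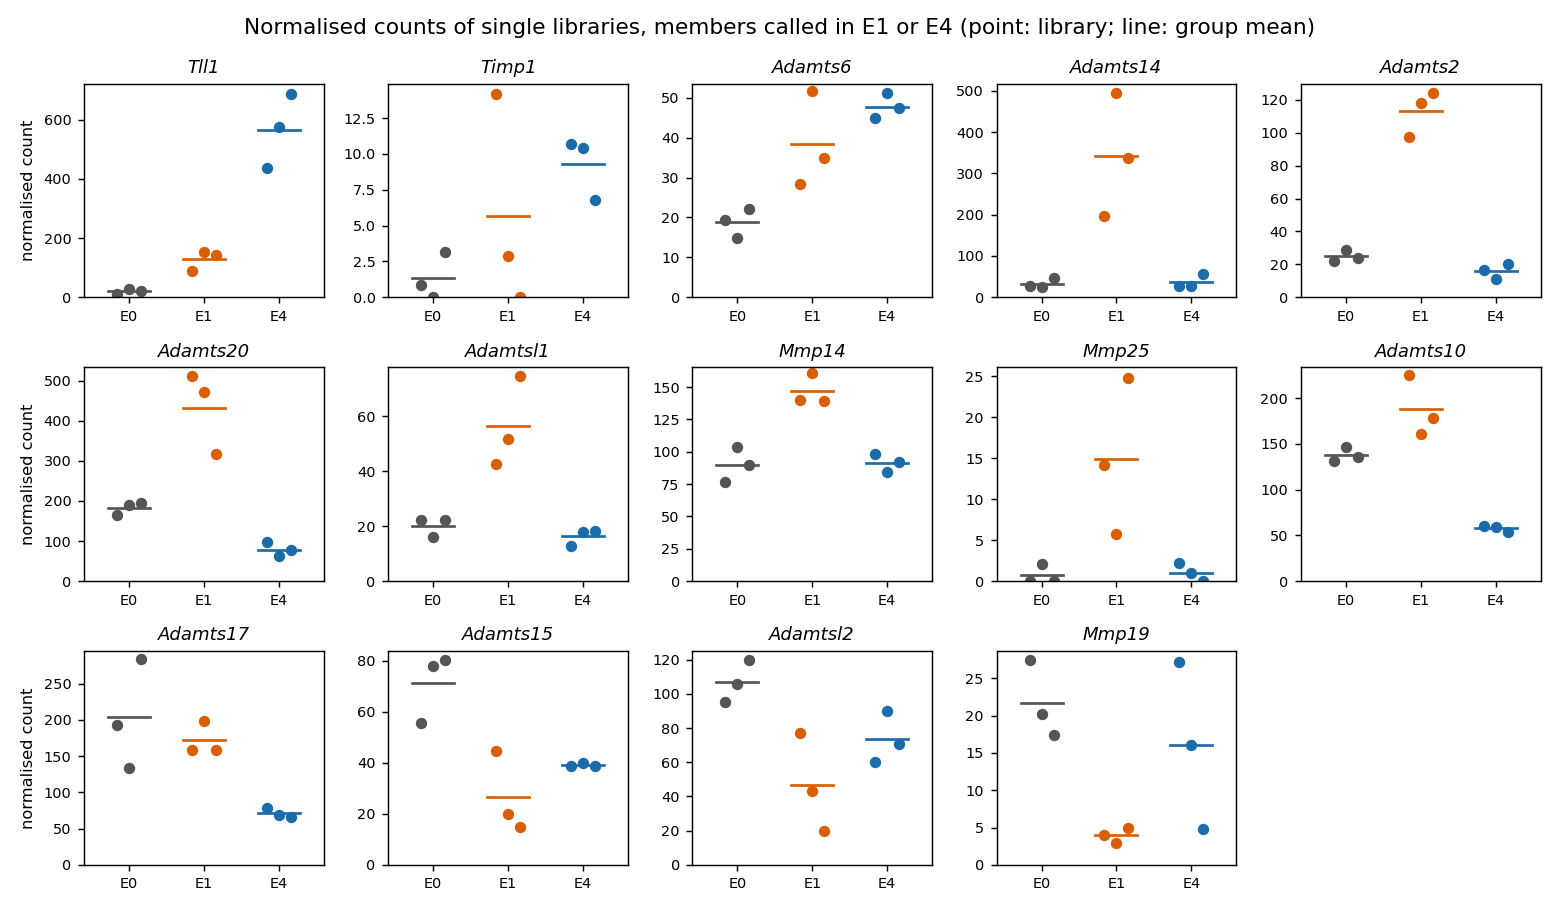
Normalised counts (vertical axes, linear, from 0) of single libraries by group (horizontal axes) for the 14 genes that were called and whose reads could be worked out; points are libraries, deepest at the left of each group, and lines are means of 3. Tll1 climbs from 12.4 to 26.6 in E0 up to 436 to 688 in E4, while Adamts14, Adamts2, Adamts20 and Adamtsl1 are high in E1 alone of the 3 groups.

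Among the ADAMTS proteases 4 rose and 1 fell in E1, and 1 rose and 5 fell in E4, of 18 and 16 with an adjusted p in the authors' deposited tables. Called were 27.8% in E1 and 37.5% in E4, beside 35.5% and 39.0% of all genes tested. Those that rose in E1 were Adamts14, Adamts2, Adamts20 and Adamts13, and all 4 stood at 0.14 or lower on the log2 scale in E4.

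Adamts14 and Adamts2 remove the N-terminal propeptides of fibrillar procollagens. Normalised counts of Adamts14 were 28.3, 25.6 and 45.7 in E0, 197, 494 and 338 in E1, and 26.4, 26.5 and 55.1 in E4. Its E1 libraries lay wholly above both other groups, and E0 and E4 overlapped. The authors' deposited table for E1 gave an 8.58-fold rise (log2 3.10 ± 0.31, DESeq2 adjusted p = 1.51e-22), and that for E4 a log2 fold change of 0.11 ± 0.33 (adjusted p = 0.827). Adamts2 had 22.1, 28.8 and 23.7 in E0, 97.4, 118 and 124 in E1, and 16.4, 11.4 and 20.3 in E4. The authors' deposited table for E1 gave a 3.88-fold rise (1.96 ± 0.33, DESeq2 adjusted p = 3.08e-08). Its E4 libraries all lay below its E0 libraries, but the authors' deposited table did not call it there (-0.50 ± 0.36, adjusted p = 0.277). Adamts3, the remaining procollagen N-proteinase of this group, which also cleaves reelin, was called in neither comparison (0.11 ± 0.18 in E1 and 0.28 ± 0.14 in E4, adjusted p = 0.701 and 0.0858, authors' deposited tables).

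Adamts20, a versican-cleaving protease known from the white-spotted belted mouse, turned from high to low between the groups. It stood at 166, 189.7 and 194 in E0, 511, 471 and 318 in E1, and 97.2, 61.6 and 77.3 in E4. The 3 groups did not overlap. The authors' deposited tables called it raised 2.34-fold in E1 (log2 1.23 ± 0.20, DESeq2 adjusted p = 4.77e-09) and lowered 2.21-fold in E4 (-1.14 ± 0.20, DESeq2 adjusted p = 4.68e-08). Adamts13, the protease that cuts von Willebrand factor, was the most abundant ADAMTS gene in E0, per kilobase of transcript as well as in mean level. Its derived group means were 652 in E0, 1514 in E1 and 720.4 in E4. It rose 2.31-fold in the authors' deposited table for E1 (1.21 ± 0.16, DESeq2 adjusted p = 4.13e-13) and was not called in that for E4 (0.14 ± 0.14, adjusted p = 0.448).

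Adamts1, a secreted protease that cleaves aggrecan and versican, fell in E4 from a derived group mean of 496 to 178. The fall was 2.79-fold in the authors' deposited table for E4 (log2 -1.48 ± 0.15, DESeq2 adjusted p = 1.83e-20). For E1 its log2 fold change there was 0.27 with an SE of 0.37 (adjusted p = 0.614). That SE was larger than those of 99.4% of the 1575 genes with a mean count within 1.25-fold of it, whose median SE was 0.15, so the E1 value of Adamts1 is loosely set. Its reads per library were not worked out.

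Adamts10, Adamts17 and Adamts6 belong to a branch of the family linked to fibrillin microfibrils, and they did not move alike. Adamts10 had 132, 147 and 136 in E0, 225, 161 and 179 in E1, and 60.7, 58.7 and 53.1 in E4. The E4 libraries were tightly grouped below all others, and the authors' deposited table called the 2.28-fold fall (log2 -1.19 ± 0.20, DESeq2 adjusted p = 4.36e-08). In E1 all libraries lay above E0, without a call (0.44 ± 0.23, adjusted p = 0.126, authors' deposited table). Adamts17 had 193, 134 and 284 in E0, 158, 198 and 159 in E1, and 77.9, 69.1 and 65.7 in E4. E0 and E1 overlapped, and E4 lay below both, 2.65-fold lower than E0 in the authors' deposited table (-1.40 ± 0.22, DESeq2 adjusted p = 3.57e-09). Adamts6 went the other way, with 19.4, 14.9 and 22.1 in E0, 28.4, 51.7 and 34.8 in E1, and 45.0, 51.1 and 47.3 in E4. Both later groups lay above E0, and the call was made in E4 alone (1.16 ± 0.31, DESeq2 adjusted p = 0.000801, against 0.83 ± 0.44, adjusted p = 0.133, in E1, authors' deposited tables). The difference between its E4 and E1 values did not pass (0.34 ± 0.54, adjusted p = 0.665, difference of the deposited values).

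Adamts15, another protease of aggrecan and versican, fell in both comparisons. Its normalised counts were 55.6, 77.8 and 80.4 in E0, 44.6, 20.1 and 14.9 in E1, and 38.6, 39.8 and 38.6 in E4. No E1 or E4 library reached the lowest of E0. The authors' deposited tables gave log2 -1.11 ± 0.40 for E1 (DESeq2 adjusted p = 0.0187) and -0.78 ± 0.26 for E4 (DESeq2 adjusted p = 0.00812). The E1 libraries differed among themselves, and without the deepest of them the log2 ratio of the solved means went from -1.42 to -2.03.

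The remaining ADAMTS genes, several of which also cleave aggrecan or versican, were called in neither comparison. Adamts9, a large secreted protease of versican, had 71.5, 68.2 and 80.4 in E0, 97.4, 115 and 144 in E1, and 81.5, 74.8 and 67.6 in E4. Its E1 libraries all lay above E0, at 0.62 ± 0.28 in the authors' deposited table (adjusted p = 0.0715). Adamts4 ran from 34.7 to 74.6 in E0, 56.8 to 94.4 in E1 and 37.7 to 68.2 in E4. Adamts5 ran from 7.07 to 11.0 in E0, 17.2 to 28.4 in E1 and 3.86 to 14.2 in E4, from 4 to 15 reads per library. Its E1 libraries lay above those of E0, without a call. Adamts8, Adamts16 and Adamts18 were called in neither comparison, with 2 to 55 reads per library. Adamts7, Adamts12 and Adamts19 had at most 7 reads in any library. Adamts7 and Adamts19 have an adjusted p in the authors' deposited table for E1 alone and were not called there, and Adamts12 has none.

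ADAMTS-like proteins share the carboxy-terminal modules of ADAMTS proteases and lack the catalytic domain. In E1 1 of these 5 genes rose and 1 fell, and in E4 0 were called by DESeq2 in the authors' deposited table (1 had an unadjusted p below 0.05, Adamtsl2). The called shares were 40.0% and 0%, beside 35.5% and 39.0% of all genes tested. Adamtsl1 had 22.1, 16.0 and 22.1 in E0, 42.6, 51.7 and 74.6 in E1, and 12.9, 18.0 and 18.4 in E4. Its E1 libraries stood apart from the other groups (log2 1.22 ± 0.40, DESeq2 adjusted p = 0.0094, authors' deposited table). Sh3gl2, a gene read far more often, lies within the same locus on the same strand with no shared exon. It was raised in E1 too (1.14, authors' deposited table). In E4 Sh3gl2 was lowered (-0.73), while Adamtsl1 was not called (-0.23 ± 0.36, DESeq2 adjusted p = 0.668, authors' deposited table). Whether intronic reads were assigned between them was not tested.

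Adamtsl2, which binds fibrillin and a latent TGF-beta binding protein, had 95.4, 105 and 119.9 in E0, 77.1, 43.1 and 19.9 in E1, and 60.0, 90.0 and 70.5 in E4. No library of E1 or E4 reached the lowest of E0. It fell in the authors' deposited table for E1 (log2 -0.96 ± 0.35, DESeq2 adjusted p = 0.0186). Leaving out any 1 library put the E1 log2 ratio of the solved means, -1.20 with all, between -1.76 and -0.83. For E4 the authors' deposited table gave -0.50 ± 0.22, just short of a call (adjusted p = 0.0522), and centring the fold changes on the median gene brought the adjusted p to 0.0416. Adamtsl3, Adamtsl4 and Adamtsl5 were called in neither comparison, at 1 to 37 reads per library.

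MMPs gave 2 rises and 3 falls in E1 and 0 rises and 1 fall in E4, of 12 and 11 with an adjusted p in the authors' deposited tables. Called were 41.7% in E1 and 9.09% in E4, beside 35.5% and 39.0% of all genes tested. Of the 5 genes called, 4 are anchored in the membrane (Mmp17, Mmp25, Mmp14 and Mmp24) and Mmp19 is secreted.

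Mmp17, held at the cell surface by a lipid anchor, had the highest mean level of the 50 genes and, per kilobase of transcript, the highest E0 level after Serpine2 (612 against 748 normalised counts per kilobase). Its derived group means were 3929.9 in E0, 2785 in E1 and 2178 in E4. The falls were 1.41-fold in the authors' deposited table for E1 (log2 -0.50 ± 0.11, DESeq2 adjusted p = 3.42e-05) and 1.80-fold in that for E4 (-0.85 ± 0.09, DESeq2 adjusted p = 1.07e-18). The step from E1 to E4 also passed (-0.35 ± 0.14, adjusted p = 0.0382, normal test of the difference of deposited values). Mmp25, the other lipid-anchored MMP, had 0, 2 and 0 reads in E0, 7, 2 and 5 in E1 and 3, 1 and 0 in E4. It was called in the authors' deposited table for E1 (1.71 ± 0.55, DESeq2 adjusted p = 0.00723). Over depth, the ratio of E1 to E0 was 18.2, with an exact 95% counting interval of 4.17 to 165, which covers counting error only and no spread between mice. Without the deepest or the shallowest E0 library the log2 ratio of the solved means went from 4.39 to 3.81. Both E0 reads lie in 1 library, and without it E0 is at 0 and gives no ratio.

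Mmp14, a transmembrane MMP that activates the precursor of MMP2 and cleaves collagen, had 76.8, 103 and 89.9 in E0, 140.0, 161 and 139 in E1, and 97.9, 84.3 and 91.8 in E4. All E1 libraries lay above the rest, and E0 and E4 overlapped. Its rise in the authors' deposited table for E1 was 1.59-fold (log2 0.67 ± 0.26, DESeq2 adjusted p = 0.0307), and for E4 the value was 0.03 ± 0.21. Mmp24, a transmembrane MMP of neurons that cleaves N-cadherin, had derived group means of 608, 439.9 and 524 in E0, E1 and E4. It fell in the authors' deposited table for E1 (-0.48 ± 0.17, DESeq2 adjusted p = 0.0159) and was not called for E4 (-0.22 ± 0.11, adjusted p = 0.124). Its exons overlap those of BC029722 on the opposite strand, at -0.50 in E1 (not called) and -0.72 in E4 (called) in the authors' deposited tables. Mmp15 and Mmp16, also transmembrane MMPs, were called in neither comparison. Mmp15 stood at -0.03 ± 0.25 and 0.13 ± 0.19, and Mmp16 at 0.39 ± 0.18 and 0.10 ± 0.15, in E1 and E4 of the authors' deposited tables.

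Mmp19, a secreted MMP, had 27.4, 20.2 and 17.4 in E0, 4.06, 2.87 and 4.97 in E1, and 27.2, 16.1 and 4.83 in E4. The E1 values rest on 2, 1 and 1 reads, all below E0, while the E4 libraries spread from the level of E0 down to that of E1. The call in the authors' deposited table for E1 was log2 -1.43 ± 0.54 (DESeq2 adjusted p = 0.0246), and for E4 it was absent (-0.31 ± 0.39, adjusted p = 0.578). Mmp19 overlaps exons of Tmem198b on the opposite strand. Tmem198b stood at -0.68 in E1 and 0.22 in E4 and was called in neither of the authors' deposited tables. Whether reads were shared between them was not tested.

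The gelatinases, chosen for mention after their values were seen because they are the MMPs most often named in work on plasticity, were low. Mmp9 had 10, 11 and 8 reads in E0, 7, 5 and 9 in E1 and 6, 4 and 1 in E4. On the normalised scale its E4 libraries, at 0.966 to 4.29, lay below E0, at 8.83 to 12.6, and were not called (log2 -1.02, adjusted p = 0.0518, authors' deposited table). For E1 it stood at 0.73 in the authors' deposited table (adjusted p = 0.270). Mmp2 ranged from 18.5 to 22.1 in E0, 9.94 to 17.2 in E1 and 8.70 to 22.7 in E4 and was called in neither comparison. Mmp11, Mmp23 and Mmp28 had 0 to 19 reads per library and no call, and Mmp13 and Mmp21 had at most 3 reads in any library and no adjusted p. Exons of Mmp11 and Mmp28 overlap a gene on the opposite strand.

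The 4 TIMPs changed in different directions. Timp1, a secreted inhibitor known to be induced by neuronal activity, was nearly absent in E0 with 1, 0 and 2 reads. It had 7, 1 and 0 reads in E1 and 15, 11 and 7 in E4. Normalised, these were 0.883, 0 and 3.15 in E0 (1.35 ± 1.63), 14.2, 2.87 and 0 in E1 (5.69 ± 7.51) and 10.7, 10.4 and 6.76 in E4 (9.30 ± 2.20). All E4 libraries lay above all of E0, while the E1 mean rests mostly on 1 library. The call in the authors' deposited table for E4 was log2 1.25 ± 0.44 (DESeq2 adjusted p = 0.0152), with 0.67 ± 0.50 in that for E1 (adjusted p = 0.322). Over depth, the ratio of E4 to E0 was 8.52, with an exact 95% counting interval of 2.67 to 43.4, which again covers counting error only and no spread between mice. Without the shallowest E0 library the log2 ratio of the solved means went from 2.79 to 4.40. Timp1 lies inside Syn1, on the opposite strand and with no shared exon. Syn1 stood at 0.34 in E1 (called) and 0.23 in E4 (not called) in the authors' deposited tables.

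Timp2, which blocks MMPs and also helps MMP14 to activate MMP2, was the most abundant TIMP. Derived group means were 2035 in E0, 3004 in E1 and 1628 in E4. It rose 1.47-fold in the authors' deposited table for E1 (log2 0.56 ± 0.10, DESeq2 adjusted p = 6.86e-07) and fell 1.25-fold in that for E4 (-0.32 ± 0.10, DESeq2 adjusted p = 0.0038). Timp4, an inhibitor with high expression in brain, fell in E1 (-0.51 ± 0.18, DESeq2 adjusted p = 0.0148) and was not called in E4 (-0.13 ± 0.12, adjusted p = 0.444) in the authors' deposited tables. Timp3, which binds to the matrix and also inhibits ADAMTS proteases, was called in neither (0.26 ± 0.14 and 0.18 ± 0.11, adjusted p = 0.133 and 0.214, authors' deposited tables). In all, 8 of the 50 genes have exons that overlap those of another listed gene. Exons of Timp3 overlap Syn3 on the opposite strand and those of Timp4 overlap Syn2. In the authors' deposited tables Syn3 was lowered in both comparisons (-0.65 and -0.58), and Syn2 was raised in E1 (0.74) and not called in E4 (0.03). The sources used here do not say whether counting used strand, so reads of these pairs cannot be told apart.

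**Figure D3:**
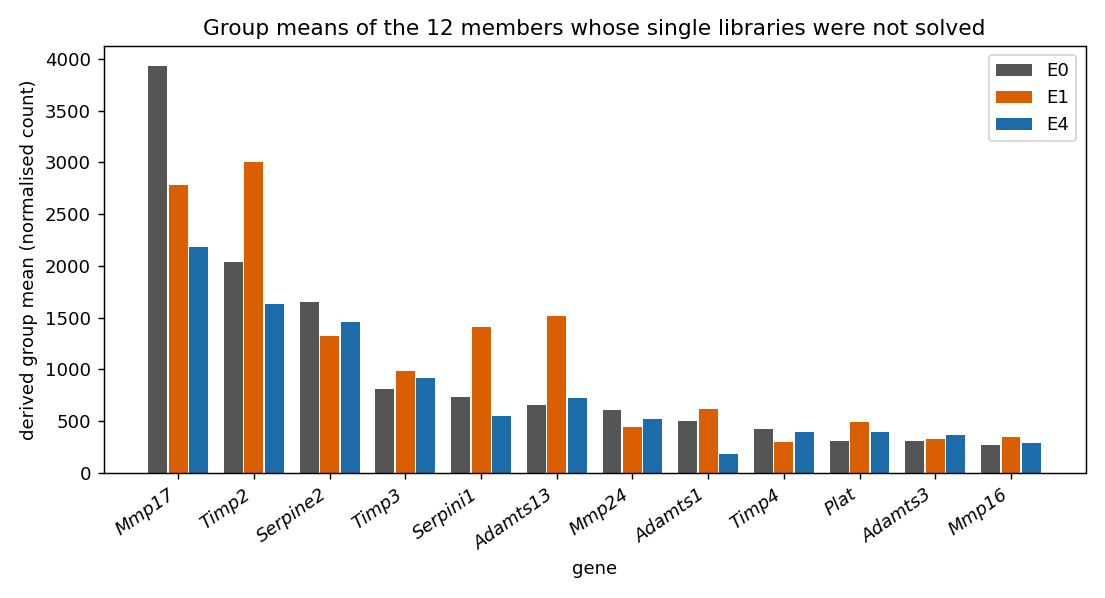
Derived group means (vertical axis, normalised counts, linear, from 0) of the 12 genes whose single libraries were not worked out (horizontal axis), for E0, E1 and E4; bars have no error because they come from deposited means and fold changes. Timp2, Serpini1 and Adamts13 are highest in E1, Mmp17 steps down from 3929.9 to 2178, and Adamts1 is lowest in E4.

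In the plasminogen activator system 2 genes rose and 1 fell in E1, and 1 rose and 1 fell in E4, of 6 and 5 with an adjusted p in the authors' deposited tables. Called were 50% in E1 and 40% in E4, beside 35.5% and 39.0% of all genes tested. Plat, tissue plasminogen activator, which cuts plasminogen and is released by neurons, rose in both comparisons. Its derived group means were 309.7, 488 and 390.3 in E0, E1 and E4. The rise was 1.57-fold in the authors' deposited table for E1 (log2 0.65 ± 0.16, DESeq2 adjusted p = 0.000251) and 1.26-fold in that for E4 (0.33 ± 0.13, DESeq2 adjusted p = 0.029).

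Serpini1, or neuroserpin, the neuronal inhibitor of tissue plasminogen activator, rose and then fell below its start. Derived group means were 735 in E0, 1405 in E1 and 549.8 in E4. The authors' deposited tables called a 1.89-fold rise in E1 (log2 0.92 ± 0.12, DESeq2 adjusted p = 1.29e-12) and a 1.34-fold fall in E4 (-0.42 ± 0.11, DESeq2 adjusted p = 0.000712). Serpine2, protease nexin-1, an inhibitor of thrombin and of plasminogen activators, had the highest E0 level per kilobase of the 50 genes. It fell 1.25-fold in the authors' deposited table for E1 (-0.33 ± 0.12, DESeq2 adjusted p = 0.0281) and was not called in that for E4 (-0.18 ± 0.10, adjusted p = 0.138).

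Plau and Plaur were read rarely, and their values were seen before they were picked for mention. Plau, urokinase, had 18, 20 and 3 reads in E0, 1, 4 and 0 in E1 and 9, 15 and 10 in E4, and was called in neither comparison. Plaur, the urokinase receptor, had 0, 2 and 0 reads in E0 against 6, 2 and 1 in E1 and 5, 2 and 1 in E4, and was not called in E1.

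E4 was set against E1 through the gap between its deposited log2 fold change and that of E1, over their combined SE, with a normal test adjusted over the 12769 genes that reached a mean count of 10 in each table. Both SEs hold the spread of the same E0 libraries and were combined as if independent. The combined SE is therefore not that of a direct comparison of E4 with E1. A gene without a call here is not shown to be unchanged. Of 30 genes that met this limit 1 was higher in E4 (Tll1) and 11 were lower, or 40.0%, beside 36.7% of all genes (17.7% higher and 19.0% lower). The median difference was -0.35, against 0.01 over all genes tested. Adamts14 (-2.99 ± 0.45, adjusted p = 4.94e-10), Adamts2 (-2.46 ± 0.48, adjusted p = 3.72e-06) and Adamts20 (-2.37 ± 0.28, adjusted p = 4.76e-16) had the largest drops from E1 to E4. Adamts1 (-1.75 ± 0.40), Adamts10 (-1.63 ± 0.31), Adamtsl1 (-1.45 ± 0.54), Serpini1 (-1.34 ± 0.17), Adamts17 (-1.19 ± 0.35), Adamts13 (-1.06 ± 0.21), Timp2 (-0.88 ± 0.14) and Mmp17 made up the rest. Tll1 went up by 2.12 ± 0.42 (adjusted p = 4.77e-06). The lower group joins genes that were raised in E1 and not called in E4 (Adamts14, Adamts2, Adamts13, Adamtsl1), genes raised and then below E0 (Adamts20, Serpini1, Timp2), genes lowered in E4 alone (Adamts1, Adamts10, Adamts17) and Mmp17, lowered in both. Timp1, Mmp25 and Mmp19 fell under the limit and have no value here.

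**Figure D4:**
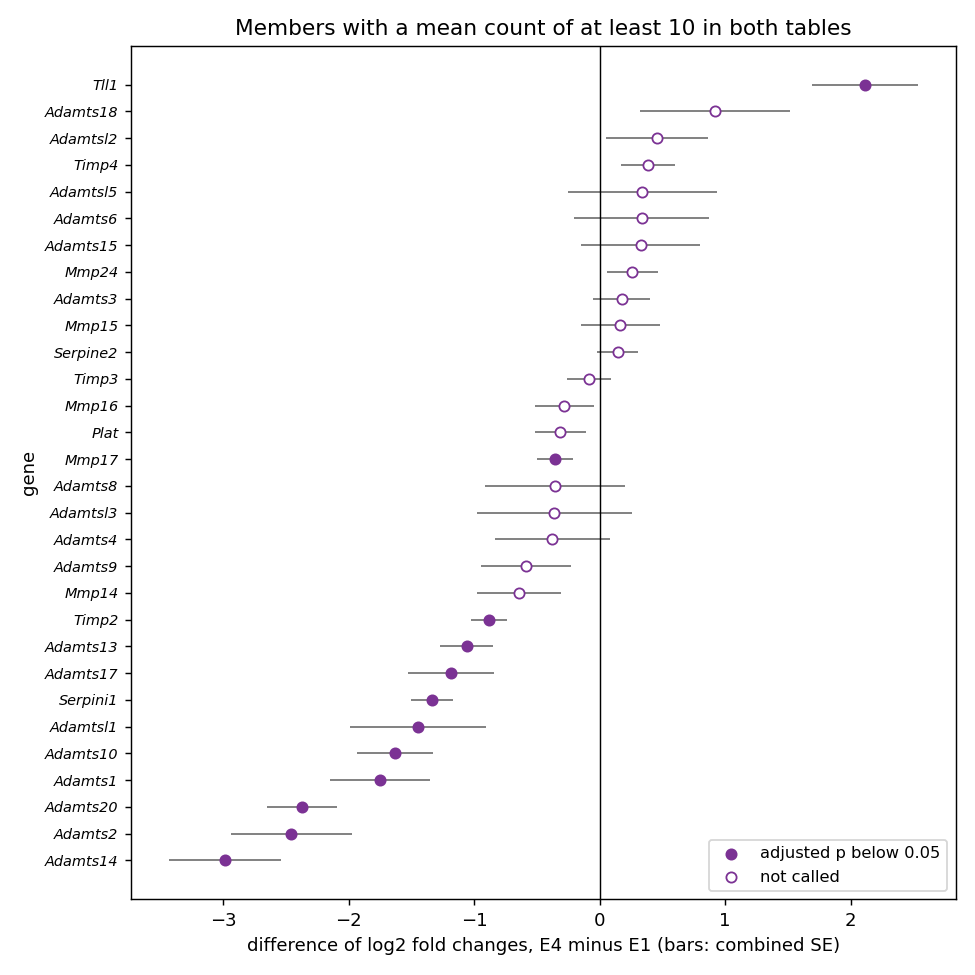
Log2 fold change of E4 minus that of E1, both as deposited (horizontal axis, bars are the combined SE), for the 30 genes that reached a mean count of 10 in each table (vertical axis), filled where the adjusted p is below 0.05. Tll1 is the only filled point to the right of 0, at 2.12, and 11 filled points lie to the left.

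Other extracellular proteases and inhibitors, a list of 65 genes, changed in both directions. In the authors' deposited table for E1, 13 rose, 8 fell and 35 were not called of 56 tested (median log2 0.06), and in that for E4, 11 rose, 9 fell and 33 were not called of 53 (median 0.04). These counts are near the shares of all genes tested, 35.5% in E1 and 39.0% in E4. The genes named next had the smallest adjusted p per direction. Bmp1, the founding member of the tolloid group, rose in E1 (0.85 ± 0.12, DESeq2 adjusted p = 2.67e-11, authors' deposited table). Spock1, a proteoglycan that inhibits some MMPs, was raised in E1 at 2.02 ± 0.16, and Adam19, a membrane-bound sheddase, at 2.74 ± 0.26 (authors' deposited table). Furin, which removes the propeptides of many of these proteases, rose in E4 to 1.75 ± 0.12 in the authors' deposited table. Ece1, endothelin-converting enzyme, rose in both comparisons (1.43 ± 0.18 and 1.80 ± 0.15, authors' deposited tables). Serpina3n, an inhibitor of serine proteases, fell in E1 (-0.67 ± 0.14) and rose in E4 (1.12 ± 0.11) in the authors' deposited tables. Htra1 fell in E1 (-0.67 ± 0.11), and in E4 Mme, or neprilysin (-1.45 ± 0.26), Ece2 (-0.78 ± 0.14), Spock2 (-0.63 ± 0.12) and Adam22 (-0.62 ± 0.09) fell, while Prss23 rose (1.43 ± 0.14, authors' deposited tables). Ctsd and Cst3, a lysosomal protease and a cathepsin inhibitor, fell in E1 (-0.45 ± 0.10 and -0.46 ± 0.12, authors' deposited table).

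Known substrates and matrix partners, a list of 46 genes, gave 11 rises, 4 falls and 31 without a call in E1 (median 0.14) and 11, 5 and 30 in E4 (median 0.05) in the authors' deposited tables. Here too the counts are near the shares of all genes tested, 35.5% and 39.0%, and the named genes had the smallest adjusted p per direction. Chrd, or chordin, the substrate of Tll1 and Bmp1, fell in E4 (-1.20 ± 0.14, DESeq2 adjusted p = 5.83e-16, authors' deposited table). Ncan, or neurocan, a lectican of the perineuronal matrix, rose in E4 (1.15 ± 0.10, authors' deposited table), and Bcan, or brevican, fell in E1 (-0.24 ± 0.10, DESeq2 adjusted p = 0.0417). Fbn1, or fibrillin, fell in both comparisons (-0.76 ± 0.27 and -0.56 ± 0.18, authors' deposited tables). The pentraxin genes Nptx2 (4.80 ± 0.17 in E1 and 3.10 ± 0.15 in E4) and Nptxr (1.68 ± 0.19 and 1.90 ± 0.15) rose in both, and Nptx1 in E4 (1.25 ± 0.10, authors' deposited tables). Bdnf, whose precursor plasmin and some MMPs can process, rose in E1 (2.62 ± 0.12), as did Col6a1 (2.69 ± 0.18, authors' deposited table). Sparcl1 (-0.48 ± 0.09) and Lamb1 (-0.72 ± 0.18) fell in E1, and Agrn (-0.38 ± 0.10) and Hapln4 (-0.62 ± 0.22) in E4, in the authors' deposited tables.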

How the data were processed

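Total RNA of the dentate gyrus was sequenced from 9 mice, 3 per group, and the groups were taken from the sample titles. The data are 2 tables of the authors' own comparisons, with 0 columns per sample. Reads were aligned with TopHat2 to mm9 and compared with DESeq2, per the submitters' processing notes, without versions. How reads were counted, on which annotation and with regard to strand, is not given in the sources used here, and neither is the model formula. The deposited signal column is a mean count, the authors' average over 6 libraries of counts divided by size factors. The deposited log2 fold changes and SEs are the authors' estimates, the deposited score is their quotient, and the deposited p-values, with their adjusted form, are the authors' own. A count test, planned for the case of counts per library, was not run.

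Genes with 1 read in all give 6 steps per table, hence the size factors, and the 9 whole reads behind a mean count were then solved from both tables together (E1 values were put on the scale of the E4 table by a factor of 1.89). All 184 low-count genes checked had exactly 1 solution. Of the 50 genes, 34 with a mean count below 100 were solved without the fold change and 4 (Tll1, Adamts17, Adamts20 and Mmp15) within 0.4 log2 of it. Among the genes solved without it, the log2 ratios of solved means differed from the deposited log2 fold changes by a median of 0.16 (8 genes, E1) and 0.04 (10 genes, E4) at mean counts of at least 25. Over all that gave a ratio the medians were 0.27 (32 genes) and 0.12 (34 genes), with gaps of up to 2.68 and 1.58 at few reads. E0 is the group both tables share. Nothing says that mice were paired.

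Named are all genes called in either comparison, the 5 most abundant uncalled ones, and up to 4 genes per direction of the other lists; the remaining genes are given by range. Some values are not reported here. The genes and lists were chosen with earlier results of these data known. Lengths come from GENCODE M21 and promoters from RefSeq. Python 3.11.15, numpy 2.4.6, pandas 2.3.3, scipy 1.17.1 and numba 0.67.0 were used, and the solving step was tested on simulated data. Alternatives were other thresholds, count minimums, centring and leaving out libraries.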

Additional observations from a re-analysis of the deposited data

Results flagged for a closer look

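For 12 genes the change over E0 differed between E4 and E1 when the deposited log2 values were subtracted and tested. The limit was an adjusted p below 0.05 for E4 minus E1, and both comparisons share the E0 libraries. The 12 genes were 40.0% of the 30 tested, near the 36.7% of all 12769 genes tested. Tll1 was the gene with a higher value in E4, by 2.12. The drop was largest for Adamts14 (-2.99), Adamts2 (-2.46) and Adamts20 (-2.37), all called raised in E1. Adamts1 (-1.75), Adamts10 (-1.63) and Adamts17 (-1.19) were lower in E4 without a call in E1. Adamtsl1 (-1.45), Serpini1 (-1.34), Adamts13 (-1.06) and Timp2 (-0.88) had been raised in E1. Mmp17 (-0.35) had the smallest difference and was lowered in both.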

How the results depend on the processing

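No paired analysis was possible because the tables hold comparisons and the solved reads carry no replicate number; for the same reason the fits without each replicate were not run across all genes. The search for a zinc-binding motif in proteins was not run. Under the alternatives, 49 summary values stayed within 1.5 times and 9 did not. In E1 against E0 the genes called went from 18 to 11 and those lowered from 7 to 1 at a threshold of 0.01. Adjusting only over genes whose mean count reached 50 in each table left 10 called in E1, 6 raised and 4 lowered, since fewer genes are tested, and a minimum log2 size of 0.5 left 4 lowered. In E4 against E0 those raised went from 4 to 2 at 0.01 and to 1 with the minimum of 50. For E4 against E1 the count higher in E4 went from 1 to 0 with the minimum of 50, which Tll1 misses in E1 (39.4 in the authors' deposited table). Shares of all genes under these settings are not given here, so the changed counts are not read as particular to these genes. Of the values for single genes 431 kept their call, 17 lost it, 6 gained it and 0 reversed. Depth limits E1 most: its shallowest library held about 1941100 reads.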
